A study of Mus musculus with 9 samples.

Results

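Genes of endoplasmic reticulum (ER) folding and of the unfolded protein response were followed in the mouse dentate gyrus after neuronal activation. The 33 genes were chosen by name as chaperones, folding enzymes, degradation factors, stress sensors and stress-induced genes of the ER, and all 33 are listed in both deposited tables, which share 23988 gene symbols. The dentate gyrus, whose principal cells are granule neurons, was microdissected from C57BL/6 mice aged 8 weeks, and total RNA of single mice was sequenced, in groups named E0, E1 and E4 of 3 mice each. The number after E carries no unit in the labels, which name no treatment. As background to the study, E0 are mice without stimulation, and E1 and E4 were taken 1 h and 4 h after an electroconvulsive stimulus, which activates granule neurons synchronously. All groups share strain, age and tissue, no transgene or deletion is named, and the sex of the mice is not given. The tissue holds glia, vessels and interneurons besides granule neurons, so that fewer cells of a type and less RNA per cell cannot be told apart.

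Values come from the authors' deposited table of E1, which sets E1 against E0, and from that of E4, which sets E4 against E0. Each gives a mean count (reads per gene divided by a size factor and averaged over the libraries of the comparison), a log2 fold change, the standard error (SE) of that change, and a p adjusted over all genes tested. The columns of the tables do not name the group they share. It is labelled WT in the tables' names, without sample titles, and was taken as E0. Values per mouse were not analysed here. A gene was called raised or lowered where the adjusted p was below 0.05. The mean counts of all genes summed to 5106311 in the authors' deposited table of E1 and to 9685492 in that of E4. Over genes read 1000 times or more on average the median SE was 0.105 in the authors' deposited table of E1 and 0.0951 in that of E4.

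Proteins that enter the secretory pathway fold in the ER with the help of chaperones and disulfide isomerases, and those that fail are sent back to the cytosol for degradation. When unfolded proteins accumulate, the membrane sensors Ern1 (IRE1), Eif2ak3 (PERK) and Atf6 signal to the nucleus. Ern1 splices the mRNA of the transcription factor Xbp1, Eif2ak3 slows translation while favouring that of Atf4, and Atf6 is cut so that its cytosolic part becomes a transcription factor. Xbp1 and Atf6 act on ER stress elements (ERSE) in the promoters of chaperone genes, and Atf4 acts on elements (CARE) in genes of amino acid supply and of feedback. In neurons the ER also stores calcium and serves dendritic protein synthesis. Values per gene do not show Xbp1 splicing, Eif2ak3 phosphorylation or Atf6 cleavage.

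Promoters were read to see which members carry these elements. Of the 33 genes 29 have a promoter in RefSeq's table for GRCm38.p6, and Manf, Hyou1, Atf6 and Derl1 do not. The 250 bases before each start were searched on both strands for the ERSE, spelled CCAAT, then 9 bases of any kind, then CCACG. It was found in 9 of the 29 genes. Among all 27025 genes with a promoter there, 35 hold it, in 37 of 32851 promoters (0.113%). The element is known from promoters of chaperone genes, so its share among members chosen as such genes is not a test. Hsp90b1 held 2 copies of the ERSE, and the other 8 of these 9 members 1 each. The stretches that hold it are shown because several of the chaperone genes below share this element. They are written 5′ to 3′ on the gene's strand with the letters of the element in capitals, and in Calr, Creld2, Derl3 and the second copy of Hsp90b1 it reads on the opposite strand as CGTGG and ATTGG.

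Hspa5, chr2:34772005-34772063, plus strand: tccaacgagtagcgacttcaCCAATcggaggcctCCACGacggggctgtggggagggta

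Hsp90b1, chr10:86705513-86705676, minus strand: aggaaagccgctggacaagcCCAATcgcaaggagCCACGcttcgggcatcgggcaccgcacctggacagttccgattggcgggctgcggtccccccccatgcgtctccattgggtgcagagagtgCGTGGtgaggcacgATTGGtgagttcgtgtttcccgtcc

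Pdia6, chr12:17266471-17266529, plus strand: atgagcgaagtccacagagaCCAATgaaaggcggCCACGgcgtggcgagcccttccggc

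Canx, chr11:50325780-50325838, minus strand: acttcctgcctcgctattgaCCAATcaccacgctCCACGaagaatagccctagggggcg

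Calr, chr8:84847055-84847113, minus strand: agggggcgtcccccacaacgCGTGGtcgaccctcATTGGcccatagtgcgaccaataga

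Dnajc3, chr14:118937807-118937865, plus strand: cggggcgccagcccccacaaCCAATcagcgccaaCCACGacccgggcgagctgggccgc

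Creld2, chr15:88819500-88819558, plus strand: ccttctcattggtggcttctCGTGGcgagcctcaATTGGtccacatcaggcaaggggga

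Syvn1, chr19:6046512-6046570, plus strand: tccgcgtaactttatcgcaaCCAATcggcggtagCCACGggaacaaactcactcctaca

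Derl3, chr10:75893222-75893280, plus strand: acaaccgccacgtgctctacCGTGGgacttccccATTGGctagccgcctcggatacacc

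Other elements were rarer among the members. The ERSE-II, spelled ATTGG, then 1 base of any kind, then CCACG, was found in Herpud1 and in 10 of all promoters (0.0304%). The CARE, spelled TGATGNAA, was found in Herpud1, Asns and Chac1 and in 3.45% of all promoters. The cAMP response element TGACGTCA lay 12 to 5 bases before the start of Ppp1r15a, and 1.55% of all promoters hold it. The element TGACGTGG was found in no member promoter and in 0.563% of all promoters. None of these motifs overlapped another in a member's promoter. The ERSE-II and CARE stretches are shown as well. Their genes were not called in either comparison, and neither were Dnajc3, Creld2, Syvn1 and Derl3, which hold an ERSE.

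Herpud1, chr8:94386297-94386407, plus strand: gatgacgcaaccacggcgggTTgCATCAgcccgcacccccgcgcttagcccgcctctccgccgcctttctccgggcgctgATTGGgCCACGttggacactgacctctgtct

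Asns, chr6:7693210-7693252, minus strand: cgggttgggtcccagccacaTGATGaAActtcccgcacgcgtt

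Chac1, chr2:119351029-119351076, plus strand: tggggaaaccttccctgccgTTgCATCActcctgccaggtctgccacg

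**Figure D1:**
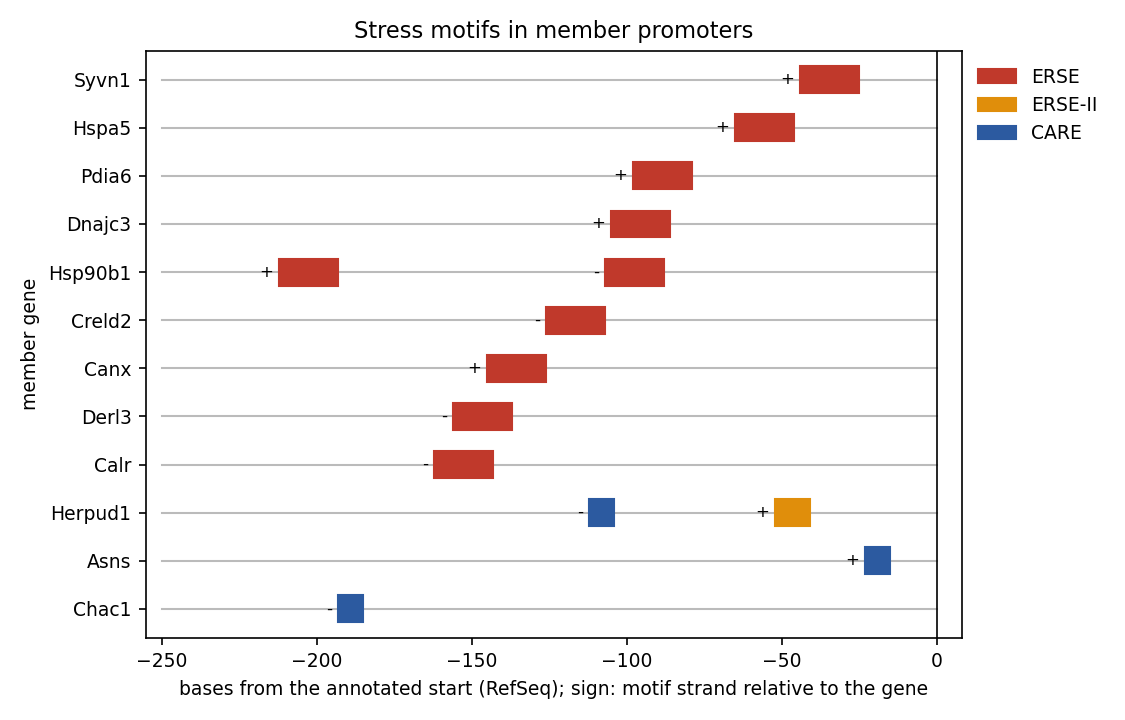
Positions of the ERSE, ERSE-II and CARE in the 250 bases before the annotated start of the member genes that hold one (x axis: bases from the start, with the start at 0; one line per gene; the sign beside each box is the strand relative to the gene). The ERSE of Syvn1 lies nearest to its start, 44 to 26 bases before it, and the first copy of Hsp90b1 farthest, 212 to 194 bases before it.

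At the earlier time Hspa5, Hsp90b1, Canx, Pdia6, Eif2ak3, Atf4, Xbp1, Ddit3, Ppp1r15a and Sesn2 were raised, while the sensor Atf6, the isomerase P4hb and the channel factor Derl1 were lowered. Of 32 members tested in E1 against E0, 10 rose (31.25%), 3 fell (9.375%) and 19 were not called. Of all 15660 genes tested, 20.6% rose and 15.0% fell, and read against these shares the number of calls is not a result particular to the members. The median log2 fold change of the members was 0.22, against 0.02 over all genes tested. Trib3, a pseudokinase gene induced by Atf4, was the member without an adjusted p, with mean counts of 0.277 (E1) and 2.24 (E4) in the authors' deposited tables.

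Hspa5 encodes BiP, the Hsp70 chaperone that holds unfolded chains and keeps the sensors inactive. It was read 2004 times on average and rose 2.67-fold in E1 in the authors' deposited table (log2 fold change 1.42 ± 0.11 SE, adjusted p = 1.78e-36), the largest change of any member there. Hsp90b1 (GRP94), the Hsp90 chaperone of the ER, rose 1.63-fold in the authors' deposited table of E1 (0.70 ± 0.09, adjusted p = 3.25e-13). The cochaperones and helpers of Hspa5 were not called: Dnajb9 stood at 0.34 ± 0.17, Dnajb11 at -0.06 ± 0.15 and Dnajc3 at -0.05 ± 0.15 in the authors' deposited table of E1. Hyou1, a large Hsp70-like protein that exchanges nucleotide on Hspa5, stood at -0.01 with a 95% interval of -0.32 to 0.30 in the authors' deposited table of E1. That interval holds neither the rise of Hspa5 nor that of Hsp90b1. Sdf2l1, Manf and Creld2, small ER proteins known as stress-induced, stood between -0.08 and 0.00 in the authors' deposited table of E1, with SEs of 0.20 to 0.33.

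Among lectin chaperones, which bind glycoproteins by their sugar chains, Canx (calnexin) rose 1.25-fold in the authors' deposited table of E1 (0.32 ± 0.11, adjusted p = 0.0110). Its soluble counterpart Calr (calreticulin) stood at 0.26 ± 0.12 and was not called in the authors' deposited table of E1 (adjusted p = 0.0757). These calls changed places after a correction for the length and GC content of the transcripts, with Canx at 0.08 (adjusted p = 0.597) and Calr at 0.38 (adjusted p = 0.00534). The disulfide isomerases went different ways. Pdia6 rose 1.57-fold (0.65 ± 0.11, adjusted p = 1.38e-07) in the authors' deposited table of E1. P4hb, the classical protein disulfide isomerase, fell by 0.37 ± 0.12 on the log2 scale there (adjusted p = 0.00500 in the authors' deposited table), a call lost once that trend was removed (adjusted p = 0.175). Pdia3, which works with the lectin chaperones, stood at -0.10 ± 0.10, and Pdia4 at -0.39 ± 0.16 (adjusted p = 0.0516), in the authors' deposited table of E1.

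Of 7 genes of ER-associated degradation 1 fell and 6 were not called in E1, with 2 of the 7 below an unadjusted p of 0.05. Derl1, part of the channel through which proteins leave the ER, fell by 0.50 ± 0.12 in the authors' deposited table of E1 (adjusted p = 0.000330). Herpud1, a stress-induced scaffold of the ubiquitin ligase Syvn1 (HRD1), stood at 0.40 ± 0.17 and just missed the threshold in the authors' deposited table of E1 (adjusted p = 0.0525). It passed with a mean count minimum of 50 (adjusted p = 0.0414), after recentring (0.0425) and after removal of the length and GC trend (0.00201). Syvn1 stood at 0.21 ± 0.15, its partner Sel1l at -0.01 ± 0.12 and the mannosidase-like Edem1 at 0.22 ± 0.24 in the authors' deposited table of E1. Derl2 at -0.40 ± 0.21 and Derl3 at 0.29 ± 0.53 are paralogs of Derl1, both uncalled in the authors' deposited table of E1, where Derl3 had 6.34 reads on average. With the length and GC trend removed Derl2 was called, at -0.61 in E1 (adjusted p = 0.0129) and at 0.64 for E4 minus E1 (adjusted p = 0.0298).

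The 3 sensors stood apart from each other in E1. Eif2ak3 rose 1.58-fold (0.66 ± 0.20, adjusted p = 0.00372) and Ern1 stood at 0.44 ± 0.30, not called, in the authors' deposited table of E1. Atf6 was lowered to 0.60-fold of E0 in the authors' deposited table of E1 (-0.74 ± 0.13, adjusted p = 4.89e-08), the largest fall of any member there. All 3 transcription factor genes rose. Atf4 rose 1.88-fold (0.91 ± 0.14, adjusted p = 5.88e-10) and Xbp1 1.44-fold (0.53 ± 0.15, adjusted p = 0.00147) in the authors' deposited table of E1. Ddit3 (CHOP), a factor of prolonged stress, rose 1.55-fold in the authors' deposited table of E1 (0.64 ± 0.25, adjusted p = 0.0325).

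Of genes downstream of Atf4, Ppp1r15a (GADD34), which restores translation by directing a phosphatase to eIF2, rose 1.67-fold in the authors' deposited table of E1 (0.74 ± 0.21, adjusted p = 0.00163). Sesn2, a leucine sensor and inhibitor of mTORC1, rose 1.57-fold in the authors' deposited table of E1 (0.65 ± 0.23, adjusted p = 0.0184). Asns, the asparagine synthetase gene, stood at -0.28 ± 0.13 (adjusted p = 0.0811) and Chac1, a glutathione-degrading enzyme gene, at 0.13 ± 0.42 on 17.4 mean reads, in the authors' deposited table of E1. The calls of Canx, Ddit3 and Sesn2 were lost at an adjusted p threshold of 0.01.

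**Figure D2:**
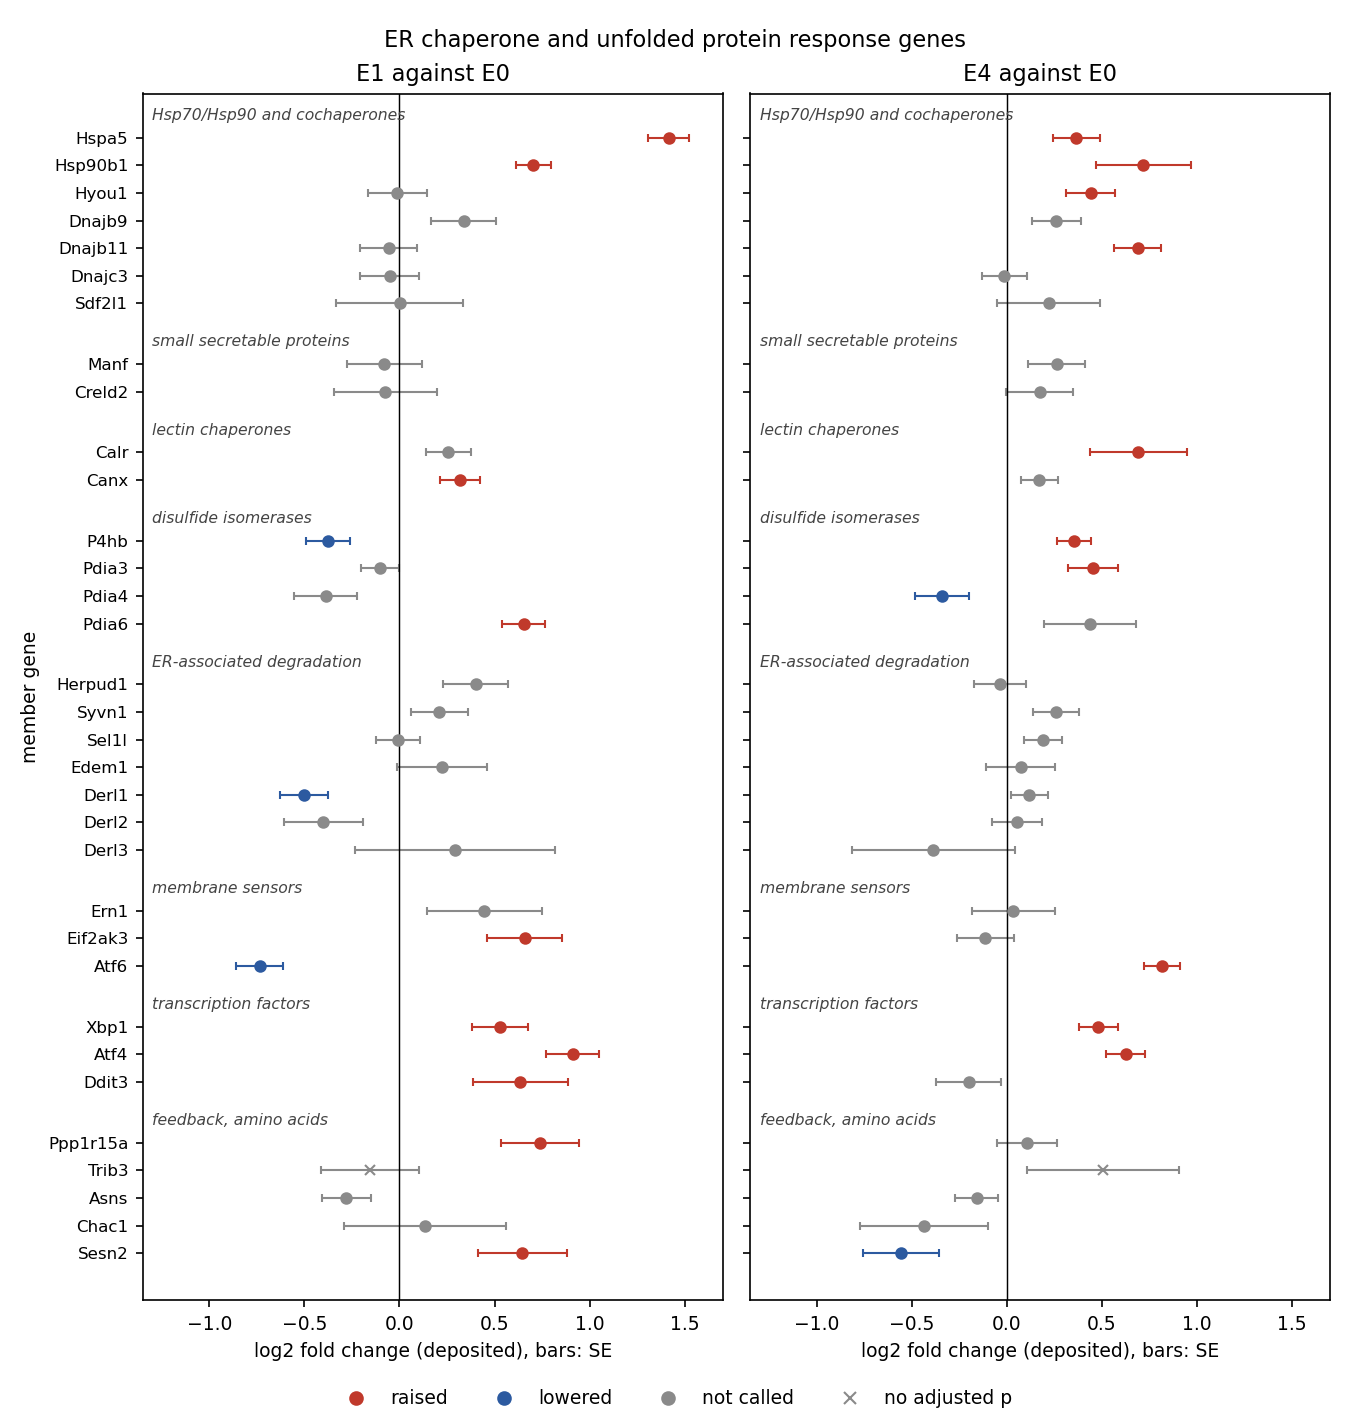
Deposited log2 fold change of each member (x axis, points, bars for ± 1 SE) against E0, in E1 on the left and in E4 on the right, with genes in rows grouped by role. Red marks raised, blue lowered and grey uncalled members, and a cross a member without an adjusted p. Hspa5 lies farthest to the right in E1 at 1.42, and Atf6 lies left of 0 in E1 and at 0.82 in E4.

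At the later time Atf6, Dnajb11, Hyou1, Calr, Pdia3 and P4hb were raised, beside Hspa5, Hsp90b1, Xbp1 and Atf4, while Pdia4 and Sesn2 were lowered. Of 32 members tested in E4 against E0, 10 rose (31.25%), 2 fell (6.25%) and 20 were not called, against 20.7% raised and 18.3% lowered among all 14455 genes tested. The number of calls is again not particular to the members, and their median was 0.18 against -0.01 over all genes tested. With a minimum absolute log2 fold change of 0.5 the calls numbered 6, and at an adjusted p threshold of 0.01 they numbered 7.

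Among chaperones of the ER lumen 4 of 7 rose in E4. Dnajb11, a cochaperone of Hspa5, rose 1.61-fold (0.69 ± 0.12, adjusted p = 1.30e-07) and Hyou1 1.36-fold (0.44 ± 0.13, adjusted p = 0.00234) in the authors' deposited table of E4. Hspa5 itself rose 1.29-fold in the authors' deposited table of E4 (0.37 ± 0.12, adjusted p = 0.010). Hsp90b1 rose 1.64-fold in the authors' deposited table of E4 (0.72 ± 0.25, adjusted p = 0.0131). Dnajb9 stood at 0.26 ± 0.13, Dnajc3 at -0.01 ± 0.12 and Sdf2l1 at 0.22 ± 0.27, none of them called, in the authors' deposited table of E4. Manf, a secreted factor known to protect neurons, stood at 0.26 ± 0.15 and Creld2 at 0.17 ± 0.18, both uncalled, in the authors' deposited table of E4.

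Calr rose 1.62-fold in the authors' deposited table of E4 (0.69 ± 0.26, adjusted p = 0.0203), while Canx stood at 0.17 ± 0.10 (adjusted p = 0.159). Of the isomerases, Pdia3 rose 1.37-fold (0.46 ± 0.13, adjusted p = 0.00206) and P4hb 1.28-fold (0.36 ± 0.09, adjusted p = 0.000358) in the authors' deposited table of E4. Pdia6 stood at 0.44 ± 0.24 and was not called in the authors' deposited table of E4 (adjusted p = 0.148). Pdia4, an isomerase with an additional active site, fell by 0.34 ± 0.14 in the authors' deposited table of E4 (adjusted p = 0.0437). That call was lost without the filter on low counts (adjusted p = 0.0552) and with the length and GC trend removed (adjusted p = 0.0775). At a threshold of 0.01 those of Hspa5, Hsp90b1, Calr, Pdia4 and Sesn2 were lost.

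No gene of ER-associated degradation was called in E4 by the authors' adjusted p of DESeq2, and 1 of 7, Syvn1, was below an unadjusted p of 0.05. Syvn1 stood at 0.26 ± 0.12 (adjusted p = 0.0771) and Sel1l at 0.19 ± 0.10 in the authors' deposited table of E4. The remaining 5 ranged between -0.39 for Derl3 and 0.12 for Derl1 in the authors' deposited table of E4. Among sensors, Atf6 rose 1.76-fold in the authors' deposited table of E4 (0.82 ± 0.09, adjusted p = 7.11e-17), the largest change of any member there. Eif2ak3 stood at -0.11 ± 0.15 and Ern1 at 0.04 ± 0.22 in the authors' deposited table of E4. Atf4 rose 1.54-fold (0.63 ± 0.10, adjusted p = 2.44e-08) and Xbp1 1.40-fold (0.48 ± 0.10, adjusted p = 1.68e-05) in the authors' deposited table of E4. Ddit3 stood at -0.20 ± 0.17 and was not called in the authors' deposited table of E4. Sesn2 fell by 0.56 ± 0.20 in the authors' deposited table of E4 (adjusted p = 0.0162). Ppp1r15a at 0.11 ± 0.16, Asns at -0.16 ± 0.11 and Chac1 at -0.43 ± 0.34 stayed uncalled in the authors' deposited table of E4.

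Errors differed among similarly well-read chaperone genes. In the authors' deposited table of E4 the SE was 0.250 for Hsp90b1, 0.255 for Calr and 0.243 for Pdia6, with mean counts of 3529, 4759 and 1068. For Canx, with a mean count of 3766, it was 0.0981 in the authors' deposited table of E4. In the authors' deposited table of E1 the SEs of the same 3 genes were 0.0919, 0.118 and 0.115. Of 2318 genes read 1000 times or more on average in the authors' deposited table of E4, 19 had an SE of at least 0.24, a level set after the values were seen. The 95th percentile over those genes was 0.125. In E4 the SEs of these 3 genes thus lay above that percentile. In E1, where the 95th percentile over genes of that depth was 0.140, Hsp90b1 and Calr lay below it, and Pdia6 had a mean count of 608 and so fell outside that depth class. Which mice this came from was not analysed here.

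**Figure D3:**
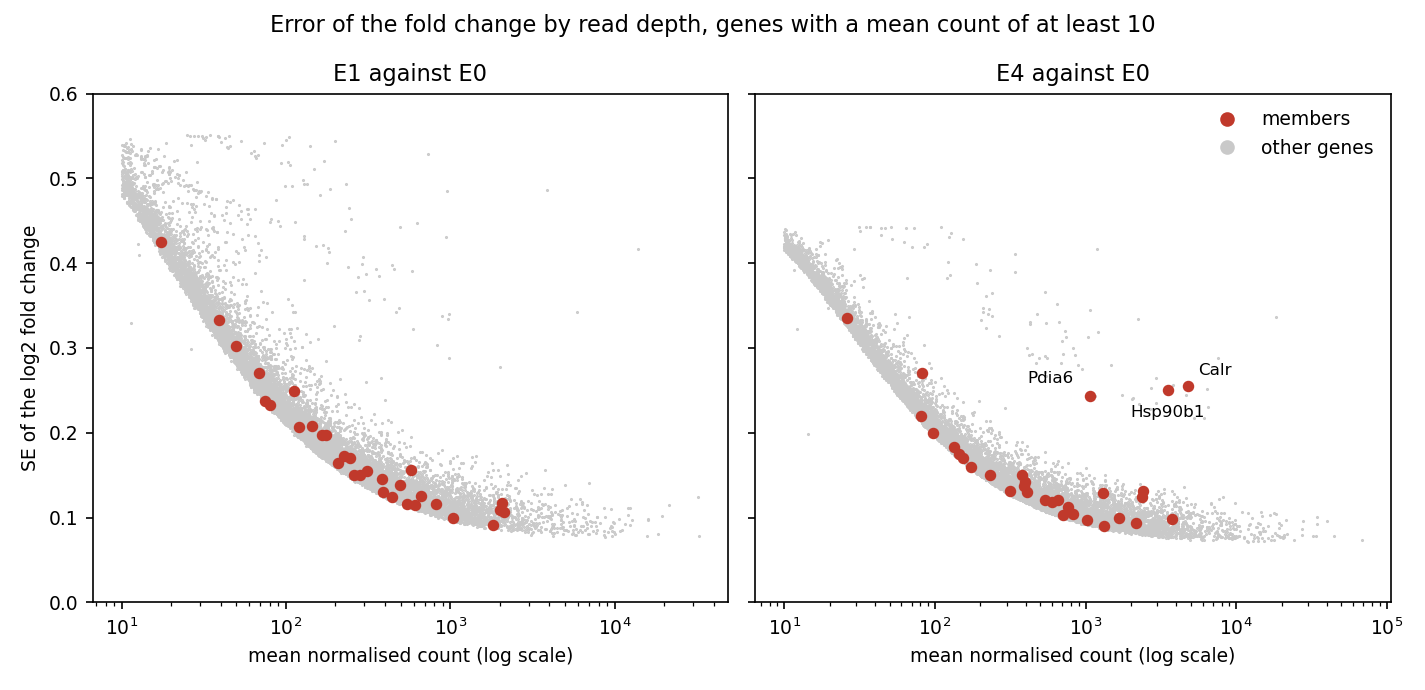
SE of the deposited log2 fold change (y axis) against the mean count (x axis, log scale) for genes read 10 times or more on average, in E1 against E0 on the left and E4 against E0 on the right. Members are red and other genes grey. Hsp90b1, Calr and Pdia6 lie at 0.250, 0.255 and 0.243 in the right panel, above the band of genes of their depth.

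The change between E4 and E1 was tested as the log2 fold change in E4 minus that in E1, over the root of the summed squared SEs. Both comparisons share the E0 mice, which cancel in the difference. Of 31 members tested, 5 were higher (16.1%), 5 lower (16.1%) and 21 not called in E4 against E1, beside 17.7% higher and 19.0% lower among 12769 genes tested. The share called among the members was thus slightly under that of all genes, and the number of calls is not a result particular to the members.

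Higher in E4 than in E1 were Atf6, the cochaperone gene Dnajb11, the isomerase genes P4hb and Pdia3, and Derl1 of ER-associated degradation. The log2 fold change of Atf6 was 0.82 in E4 and -0.74 in E1 in the authors' deposited tables, a difference of 1.56 ± 0.16 (adjusted p = 2.81e-21, 95% interval 1.25 to 1.86). Dnajb11 stood at 0.69 in E4 and -0.06 in E1 in the authors' deposited tables, a difference of 0.74 ± 0.19 (adjusted p = 0.000628). P4hb stood at 0.36 in E4 and -0.37 in E1 in the authors' deposited tables, a difference of 0.73 ± 0.15 (adjusted p = 5.48e-06). Thus 2 genes lowered at the earlier time, Atf6 and P4hb, were raised at the later one, though for P4hb the earlier call was lost with the length and GC trend removed (-0.20, adjusted p = 0.175). Derl1 was higher by 0.62 ± 0.16 (adjusted p = 0.000502) and Pdia3 by 0.56 ± 0.16 (adjusted p = 0.00311).

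Lower in E4 than in E1 were Hspa5, Sesn2, Ddit3, Eif2ak3 and Ppp1r15a. Atf4 itself was not called, nor were Chac1 (-0.57 ± 0.54, adjusted p = 0.437) and Asns (0.12 ± 0.17, adjusted p = 0.621), and Trib3 was not tested. Hspa5 stood at 0.37 in E4 and 1.42 in E1 in the authors' deposited tables, a difference of -1.05 ± 0.17 (adjusted p = 3.45e-09). Sesn2 stood at -0.56 in E4 and 0.65 in E1 in the authors' deposited tables, a difference of -1.20 ± 0.31 (adjusted p = 0.000498). Sesn2 was thus raised at the earlier time and lowered at the later one, and both calls were lost at a threshold of 0.01. The differences were -0.84 ± 0.30 for Ddit3 (adjusted p = 0.0185), -0.77 ± 0.25 for Eif2ak3 (adjusted p = 0.00729) and -0.63 ± 0.26 for Ppp1r15a (adjusted p = 0.0432). The calls of Ddit3 and Ppp1r15a were lost at a threshold of 0.01. That of Ppp1r15a was also lost when all genes with a mean count above 0 in both tables were tested (adjusted p = 0.0551).

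Some members raised at either time were not shown to differ between the times. For Xbp1 the difference was -0.04 with a 95% interval of -0.39 to 0.30, and for Hsp90b1 it was 0.01 with an interval of -0.51 to 0.53. For Atf4 it was -0.29 with an interval of -0.63 to 0.05, and it passed with the length and GC trend removed (-0.46, adjusted p = 0.0266). Hyou1, raised in E4, differed by 0.45 ± 0.20 (adjusted p = 0.0645), and passed where covariance for the shared E0 mice was taken off (adjusted p = 0.00992). Herpud1, called at neither time, differed by -0.44 ± 0.22 (adjusted p = 0.103). It passed with that covariance taken off (adjusted p = 0.0239) and with the length and GC trend removed (-0.57, adjusted p = 0.0271).

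**Figure D4:**
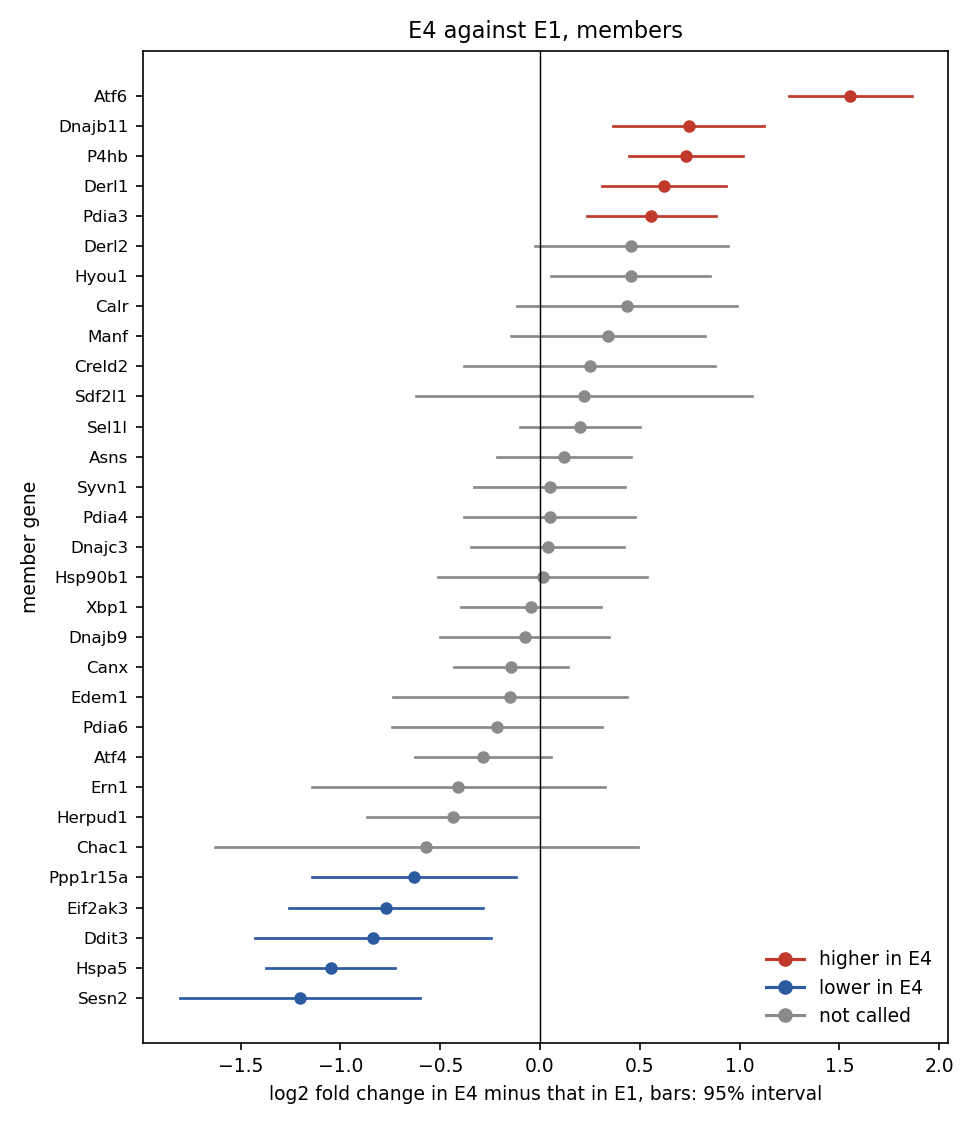
Difference of the log2 fold changes, E4 minus E1 (x axis), for the 31 members tested, sorted from highest to lowest, with 95% intervals as bars. Red genes were called higher and blue genes lower in E4. Atf6 stands apart at the top at 1.56, and Hspa5 at -1.05 and Sesn2 at -1.20 lie at the bottom.

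Members with and without an ERSE were set side by side, to be read against the 20.7% raised and 18.3% lowered among all genes tested in E4 and the 20.6% and 15.0% in E1. In E4, of the 9 genes with the element, 3 rose and 6 were not called, with a median log2 fold change of 0.26. Of the 19 tested members whose promoter lacked it, 5 rose and 2 fell in E4, while 12 stayed uncalled, with a median of 0.07. In E1, of the 9 genes with the element 4 rose and 5 were not called, with a median of 0.29, and of the 19 without it 6 rose, 1 fell and 12 were not called, with a median of 0.22. Genes with the same element thus differed among themselves: in the authors' deposited table of E1 Hspa5 stood at 1.42 and Dnajc3 at -0.05. In all 35 genes hold an ERSE in this window. Of the 26 that are not members, 18 are listed in the tables and 10 were tested, of which 1 rose in each comparison and 2 fell in E4.

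Around the members, the share of genes called in E4 lay near that of all genes over the lists as a whole and differed from list to list. Of 237 other genes of ER folding, degradation, stress signalling, translocation, glycosylation, export, calcium handling and mitochondrial folding, 61 rose and 32 fell in E4, while 144 stayed uncalled, with a median of 0.08. These are 25.7% and 13.5%, against 20.7% and 18.3% of all genes tested. Among the genes of the translocon, signal peptidase and signal recognition particle, which bring new chains into the ER, 11 of 24 rose and 1 fell in E4. Ssr1 stood at 0.88 ± 0.09, the channel subunit gene Sec61a1 at 0.59 ± 0.11 and Srp9 at 0.50 ± 0.10 in the authors' deposited table of E4. Of 23 genes of COPII coats, KDEL receptors and cargo receptors, which carry folded proteins onward, 9 rose and 1 fell in E4. Sec24d, a cargo-selecting coat subunit, stood at 0.99 ± 0.10, Tmed2 at 0.75 ± 0.10 and Lman2 at 0.68 ± 0.09 in the authors' deposited table of E4.

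Of 33 other genes of ER-associated degradation 12 rose and 6 fell in E4. The ubiquitin-conjugating enzyme gene Ube2g2 stood at 1.07 ± 0.10, Ube2g1 at 0.81 ± 0.10 and Erlin2 at -0.58 ± 0.11 in the authors' deposited table of E4. Other folding enzymes of the ER showed 5 rises and 5 falls among 36 in E4. Sec63, a partner of the translocon and of Hspa5, stood at 0.76 ± 0.09, and Sil1, a nucleotide exchange factor of Hspa5, at -0.87 ± 0.17, in the authors' deposited table of E4. In oligosaccharyltransferase and N-glycan genes 6 of 27 rose and 4 fell in E4, with Ddost at 0.73 ± 0.12 and Tusc3 at -0.53 ± 0.09 in the authors' deposited table of E4. Mitochondrial chaperones and proteases had 4 rises and 2 falls among 14, with Hspa9, the Hsp70 of mitochondria, at 0.67 ± 0.08 and the protease gene Htra2 at -0.93 ± 0.19 in the authors' deposited table of E4. Calcium pumps, channels and buffers of the ER had 3 rises and 5 falls among 18 in E4. Atp2a2 (SERCA2), the pump that fills the ER store, stood at 0.67 ± 0.11, and Stim1, the sensor of that store, at -0.49 ± 0.10, in the authors' deposited table of E4.

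In E1 the same lists held 38 rises, 50 falls and 150 uncalled genes of 238, with a median of -0.07. These are 16.0% raised and 21.0% lowered, against 20.6% and 15.0% of all genes tested. Genes of COPII coats and cargo receptors had 3 rises and 7 falls among 24, with Tmed9 at -1.05 ± 0.12 and Sec24d at -0.70 ± 0.15 in the authors' deposited table of E1. Translocon genes had 4 rises and 3 falls among 25, other folding enzymes 6 and 7 among 36, other degradation genes 6 and 5 among 32, and N-glycan genes 3 and 5 among 27. Mitochondrial chaperones had 1 rise and 3 falls among 14 and calcium genes 3 and 4 among 18. Sec24d thus changed direction, with a difference of 1.69 ± 0.17 between E4 and E1 (adjusted p = 3.51e-20).

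Among 17 other bZIP factors and their proteases, 2 rose and 4 fell in E1 and 4 rose and 1 fell in E4. For this list and the next 2, the shares over all genes tested were 20.6% raised and 15.0% lowered in E1. In E4 they were 20.7% and 18.3%. Atf3, a factor that Atf4 and neuronal activity both induce, rose 60.2-fold in the authors' deposited table of E1 (5.91 ± 0.26) and stood at 2.20 ± 0.30 in that of E4. Mbtps2, the protease that completes Atf6 cleavage, stood at 1.15 ± 0.18, and Nfyc, also on this list, at -0.81 ± 0.18, in the authors' deposited table of E1. Cebpb stood at 1.99 ± 0.14 and Atf6b, a paralog of Atf6, at -0.56 ± 0.10 in the authors' deposited table of E4. Among 31 other genes of the integrated stress response and amino acid supply, 7 rose and 7 fell in E1 and 7 rose and 3 fell in E4. The medians were -0.08 in E1 and 0.04 in E4. The genes named next for E1 are all among the 7 that rose. Raised genes included the amino acid transporters Slc7a1 at 1.75 ± 0.17 and Slc7a11 at 1.57 ± 0.19 and the phosphatase regulator Ppp1r15b at 1.15 ± 0.11, in the authors' deposited table of E1. Slc38a2, another amino acid transporter gene, stood at 0.94 ± 0.09, Eif2s1 at 0.70 ± 0.12 and Pck2 at -1.12 ± 0.19 in the authors' deposited table of E4. Of 14 genes linked to cell death under ER stress, 3 rose and 5 fell in E1, and 4 fell and 10 were not called in E4. The medians were -0.45 in E1 and -0.04 in E4. Only 4 of the 14 lay above 0 in E1, and the genes named next for E1 are the 3 that rose. The death receptor gene Tnfrsf10b stood at 4.61 ± 0.30 and Bcl2l11, a target of Ddit3, at 2.58 ± 0.29, while the protective Bcl2 rose 4.01-fold, in the authors' deposited table of E1. Map3k5 stood at -1.55 ± 0.15, Itpr1 at -0.71 ± 0.10 and Bcl2l1 at -0.41 ± 0.09 in the authors' deposited table of E4.

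**Figure D5:**
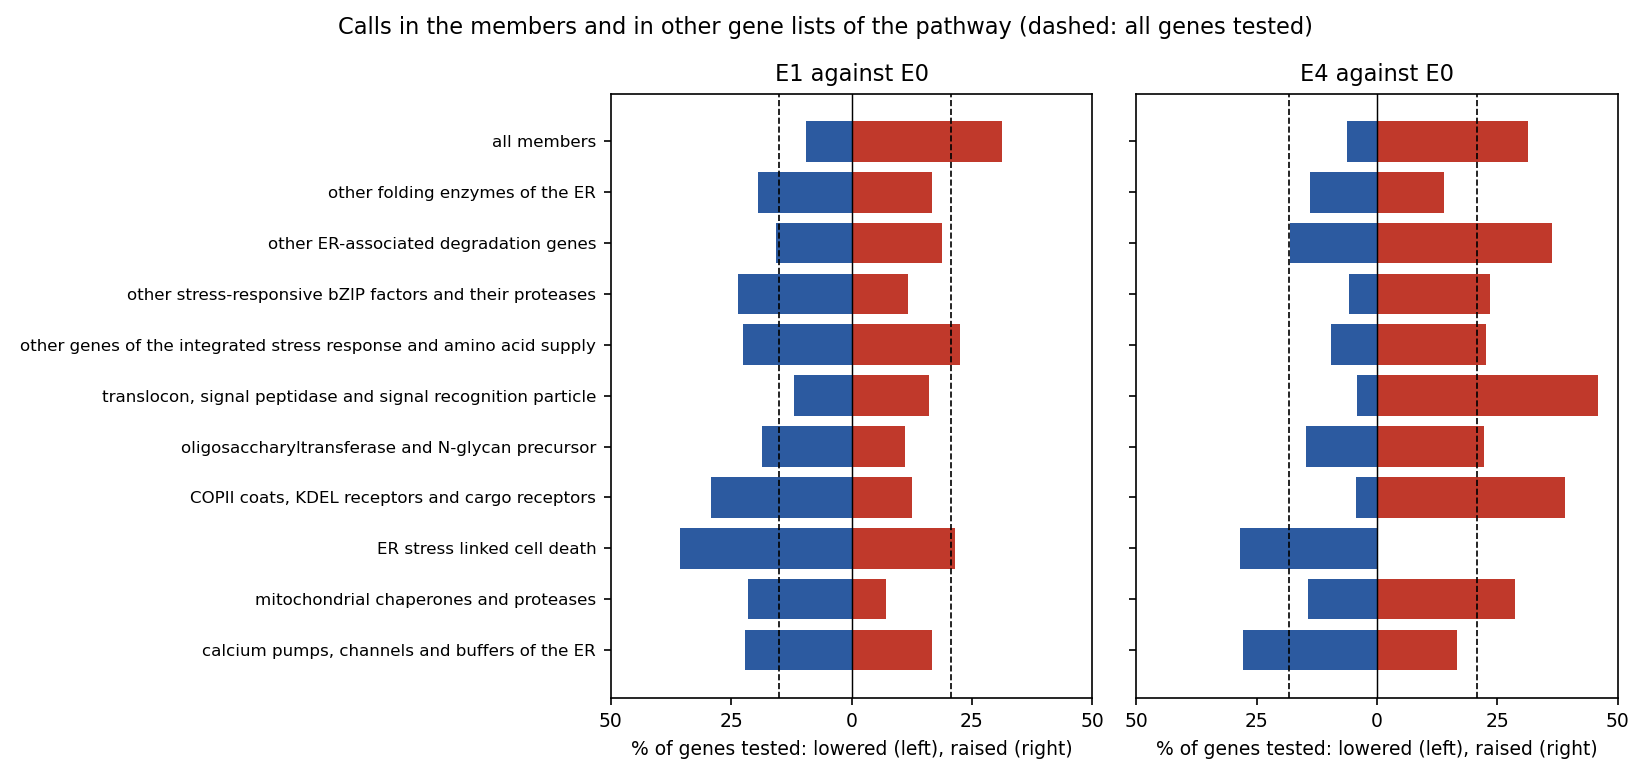
Share of tested genes called raised (right of 0) and lowered (left of 0) in the members and in 10 other gene lists (rows), in E1 against E0 on the left and E4 against E0 on the right; dashed lines mark the shares over all genes tested (20.6% and 15.0% in E1, 20.7% and 18.3% in E4). In E4 the longest bar to the right is that of the translocon list, 11 of 24 genes.

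Markers of several cell types shifted in E1, and in the difference of E4 from E1. Their counts are to be read against the shares over all genes tested, which some of them lie near. These shares were 20.6% raised and 15.0% lowered in E1, and 20.7% and 18.3% in E4. For E4 minus E1 they were 17.7% higher and 19.0% lower. All 9 granule neuron markers listed were read in both comparisons, and 3 rose and 6 fell in E1 (median -0.66). Of 11 interneuron markers 7 rose (median 0.81), of 10 endothelial and mural markers 5 rose (median 0.78), of 10 astrocyte markers 6 fell (median -0.42) and of 10 microglia markers 3 fell (median -0.40) in E1. Of 10 oligodendrocyte lineage markers 1 rose and 2 fell, and of 5 choroid plexus markers 1 fell, in E1. The interneuron gene Gad2 stood at 1.57 ± 0.12, the endothelial Flt1 at 1.49 ± 0.30, the astrocyte Gfap at -0.95 ± 0.14 and the microglial Csf1r at -0.71 ± 0.12 in the authors' deposited table of E1. Granule neuron markers went both ways, with Rasgrp1 at 1.55 ± 0.13 and Dsp at -2.41 ± 0.14 in the authors' deposited table of E1. In E4 granule neuron markers had 4 rises and 4 falls (median -0.17), and interneuron markers 2 rises and 1 fall (median -0.22). Astrocyte markers had 1 of each and microglia markers 2 falls in E4. By the authors' DESeq2 test 0 of 10 oligodendrocyte, 0 of 10 endothelial and 0 of 3 choroid plexus markers were called in E4, with 0, 2 and 1 below an unadjusted p of 0.05. No marker on these lists had a mean count of 0, and astrocyte markers summed to 65584 (E4) and 33460 (E1) mean counts in the authors' deposited tables. The mean counts of all genes summed to 9685492 (E4) and 5106311 (E1) there, and each pools E0 with the other group. Such sums therefore do not show a change of markers between groups. For E4 minus E1, interneuron markers had a median of -1.03 with 5 of 11 lower, and endothelial markers a median of -0.65 with 3 of 10 lower. Granule neuron markers had a median of 0.49 with 5 higher and 4 lower, astrocyte markers 0.27 with 3 of 10 higher, and microglia markers 0.34 with 2 of 10 higher. Oligodendrocyte lineage markers had 2 higher and 1 lower of 10, and 1 of 2 choroid plexus markers was higher. Choroid plexus markers were scarce, with summed mean counts of 350 (E4) and 168 (E1) in the authors' deposited tables. The part of these shifts in the members' values was not tested.

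Reads of some members may not be separable from those of other genes, since the sources used here do not state how reads were counted or whether strand was used. In the GENCODE M21 annotation exons of 11 members overlap another gene, in 7 a protein-coding one. Ddit3 overlaps Mars on the opposite strand, which stood at 0.19 in the authors' deposited table of E1 and at -0.03 in that of E4. Manf overlaps Rbm15b on its own strand, which stood at 0.57 in the authors' deposited table of E1 and at 0.64 in that of E4. Derl2 overlaps Mis12 on the opposite strand, which stood at -0.78 in the authors' deposited table of E1 and at -0.25 in that of E4. Syvn1 overlaps Mrpl49 on the opposite strand, which stood at -0.28 in the authors' deposited table of E1 and at 0.06 in that of E4.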

How the data were processed

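Total RNA of the microdissected dentate gyrus of 9 individual mice was sequenced from Illumina libraries (per the labels' protocols), and groups were taken from the sample titles. The authors used TopHat2, DESeq2 and the build mm9, named without versions in the submitters' processing notes. How reads were counted, on which annotation, with which strand setting and model is not given in the sources used here. Per the file headers, the deposited signal (baseMean) is DESeq2's average over libraries of size-factor scaled counts. The deposited log2 fold changes and SEs come from DESeq2, per the file headers, and look shrunken to 0, with median absolute values of 0.142 and 0.106 for genes with a mean count below 1 in E1 and E4, so folds of low genes are understated. The deposited score is the log2 fold change over its SE, and the deposited p-value and adjusted p are the authors' (Benjamini-Hochberg values recomputed over the same genes differed by at most 3.56e-07). The shared group of both tables is labelled WT in their names only and was taken as E0. In the table for E1 27 symbols are dates and were left out of lists and joins.

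No value per library was used, so no count test was run and no SD is given. E4 was tested against E1 from the deposited values, with a two-sided normal p and Benjamini-Hochberg adjustment over 12769 genes read 10 times or more on average in each table. How this test behaves with shrunken log2 fold changes was not tested. Adding both variances in full ignores the shared E0 mice and overstates the error. Intervals are the value ± the 95% normal range. Lists are described by counts and medians, without a set test. All members are named, and of the other lists up to 3 called genes per comparison with the smallest adjusted p (of marker lists with a median over 0.3 in size, up to 2). Members, lists and tests were chosen with earlier results of these data known. Sequences and starts are from RefSeq, GRCm38.p6, used for no coordinate of the files. Python 3.11.15, numpy 2.4.6, pandas 2.3.3, scipy 1.17.1 and matplotlib 3.10.9 were used.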

Additional observations from a re-analysis of the deposited data

Results flagged for a closer look

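The response of 10 members differed between the later and the earlier time by the test of the difference itself, as given above. They are 16.1% higher and 16.1% lower of the 31 tested, beside 17.7% and 19.0% of all genes tested. Their number is thus not particular to the members. The log2 fold change in E4 minus that in E1 was 1.56 for Atf6, 0.73 for P4hb, 0.74 for Dnajb11, 0.62 for Derl1 and 0.56 for Pdia3. It was -1.05 for Hspa5, -1.20 for Sesn2, -0.77 for Eif2ak3, -0.84 for Ddit3 and -0.63 for Ppp1r15a. Of these, Atf6, P4hb and Sesn2 were called in opposite directions in E4 and E1. The E1 call of P4hb was lost with the length and GC trend removed (adjusted p = 0.175), and both calls of Sesn2 at a threshold of 0.01 (adjusted p = 0.0162 in E4 and 0.0184 in E1). Which libraries carry these differences was not tested, since values per mouse were not analysed here.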

How the results depend on the processing

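No paired analysis was possible because the tables carry no values per library, and for the same reason leaving out replicates, another normalisation and a count test were not run. The number of members called was within 1.5 times the reported number under every alternative run, except in E4, where it fell to 7 of 12 at an adjusted p threshold of 0.01 and to 6 with an absolute log2 fold change of at least 0.5. With that minimum fold, calls among other pathway genes numbered 41 in place of 93 in E4 and 53 in place of 88 in E1. Of 592 member results under the alternatives 547 kept direction and call, 23 lost and 11 gained a call, and 11 changed sign, none of the 11 called on either side. Only recentring and removal of the length and GC trend alter a log2 fold change, so the direction was fixed under the other settings. A stricter threshold or a minimum fold could not add a call. The 547 are therefore not a measure of robustness. After recentring the values that changed sign were Hyou1 (0.0046 in E1), Sel1l (0.0064 in E1) and Hsp90b1 (-0.025 for E4 minus E1). With the length and GC trend removed they were Hyou1 (0.055), Dnajb11 (0.066), Manf (0.069) and Creld2 (0.18) in E1, Herpud1 (0.032) in E4, and Dnajb9 (0.11), Canx (0.055) and Syvn1 (-0.094) for E4 minus E1. The cause was not tested. The lower mean counts limit the comparison for E1, where Derl3, Chac1 and Sdf2l1 had SEs of 0.33 to 0.53, so that only changes well above that size were detectable.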
